A study of Mus musculus with 137 samples.

Results

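The immediate early response genes Fos, Fosb, Jun, Junb, Egr1, Egr2, Egr3, Atf3, Ier2, and Dusp1 were examined in the crypt and villus compartments of mouse duodenum after oral exposure to hexavalent chromium, Cr(VI). These 10 genes were picked by symbol from the 21450 genes of the count table. The 10 genes had 16 probes in all, and each gene is represented by its probe with the largest sum of counts. Female wildtype B6C3F1 mice had drunk water with 0 (untreated), 0.1, 1.4, 5, 20, 60, or 180 ppm Cr(VI), given as sodium dichromate dihydrate, for 7 or 90 days, and the tissue is called day 8 or day 91. From adjacent sections of fixed, paraffin-embedded duodenum a pathologist scraped away either the crypts or the villi and kept the rest, so a library can also hold stroma, vessels, and immune cells of its region. There were 71 crypt and 66 villus libraries from 71 mice, and 66 mice gave both. Of the 28 groups most had 5 libraries. Day 8 crypts exposed to 0.1 ppm had 6, and 4 were left for untreated day 91 villi and for day 8 villi exposed to 5, to 20, or to 180 ppm.

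Immediate early genes are transcribed within minutes of a stimulus, from transcription factors that are already present in the cell, and their RNAs are short-lived. Growth factors and stress act through MAP kinase cascades, which lead to the phosphorylation of serum response factor partners, CREB, and Jun. Fos and Fosb pair with Jun and Junb to form the AP-1 transcription factor. Egr1, Egr2, and Egr3 are zinc finger transcription factors, and Egr2 and Egr3 are also known for their part in lymphocyte activation. Atf3 is a transcription factor of the stress response, Ier2 is a small nuclear protein, and Dusp1 is a phosphatase that switches MAP kinases off. In the intestine these genes are known as early responders to injury, growth factors, and stress.

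RNA was measured by TempO-Seq, in which a pair of oligonucleotides that meet on a transcript are ligated and the ligated products are sequenced and counted. Total counts ran from 1463938 to 7199801 per library, with a median of 3592983. Levels are CPM, the count of a probe relative to the library total after TMM (trimmed mean of M-values) scaling, and 3 counts were between 0.488 and 1.93 CPM, depending on the library. Probes differ in efficiency and CPM of a probe is not a value per length, so levels of different genes are set side by side below without a comparison of their abundance. Differences are log2 fold changes ± SE from edgeR's quasi-likelihood test of all 28 groups, with p-values adjusted by the Benjamini-Hochberg procedure over 26365 probes. A gene is called changed when the adjusted p is below 0.1. Libraries of 1 group came from different mice. The library labelled untreated day 8 villus of mouse 48 had the highest sum of 8 crypt markers of all villus libraries (11874 CPM), and the library labelled untreated day 8 crypt of mouse 49 had the highest sum of 8 villus markers of all crypt libraries (34222 CPM) and the lowest of crypt markers (1516 CPM). For most called day 8 results, values without both are also given.

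Ier2 and Jun were measured in every library with more than 3 counts, at a median of 221 and 34.8 CPM. Junb, Fos, and Dusp1 passed 3 counts in 133, 132, and 129 of all libraries, with medians of 12.9, 14.1, and 11.4 CPM. Atf3 did so in 110 libraries and Egr1 in 108, both with medians near 5 CPM. Egr3, Fosb, and Egr2 were sparse, with more than 3 counts in 68, 53, and 27 libraries. Egr2 did not exceed 3 counts in any library of 9 of the 28 groups and Fosb in any of 4, so changes of these genes were mostly not detectable at this depth. The plot of the members by concentration shows these levels library by library.

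**Figure D1:**
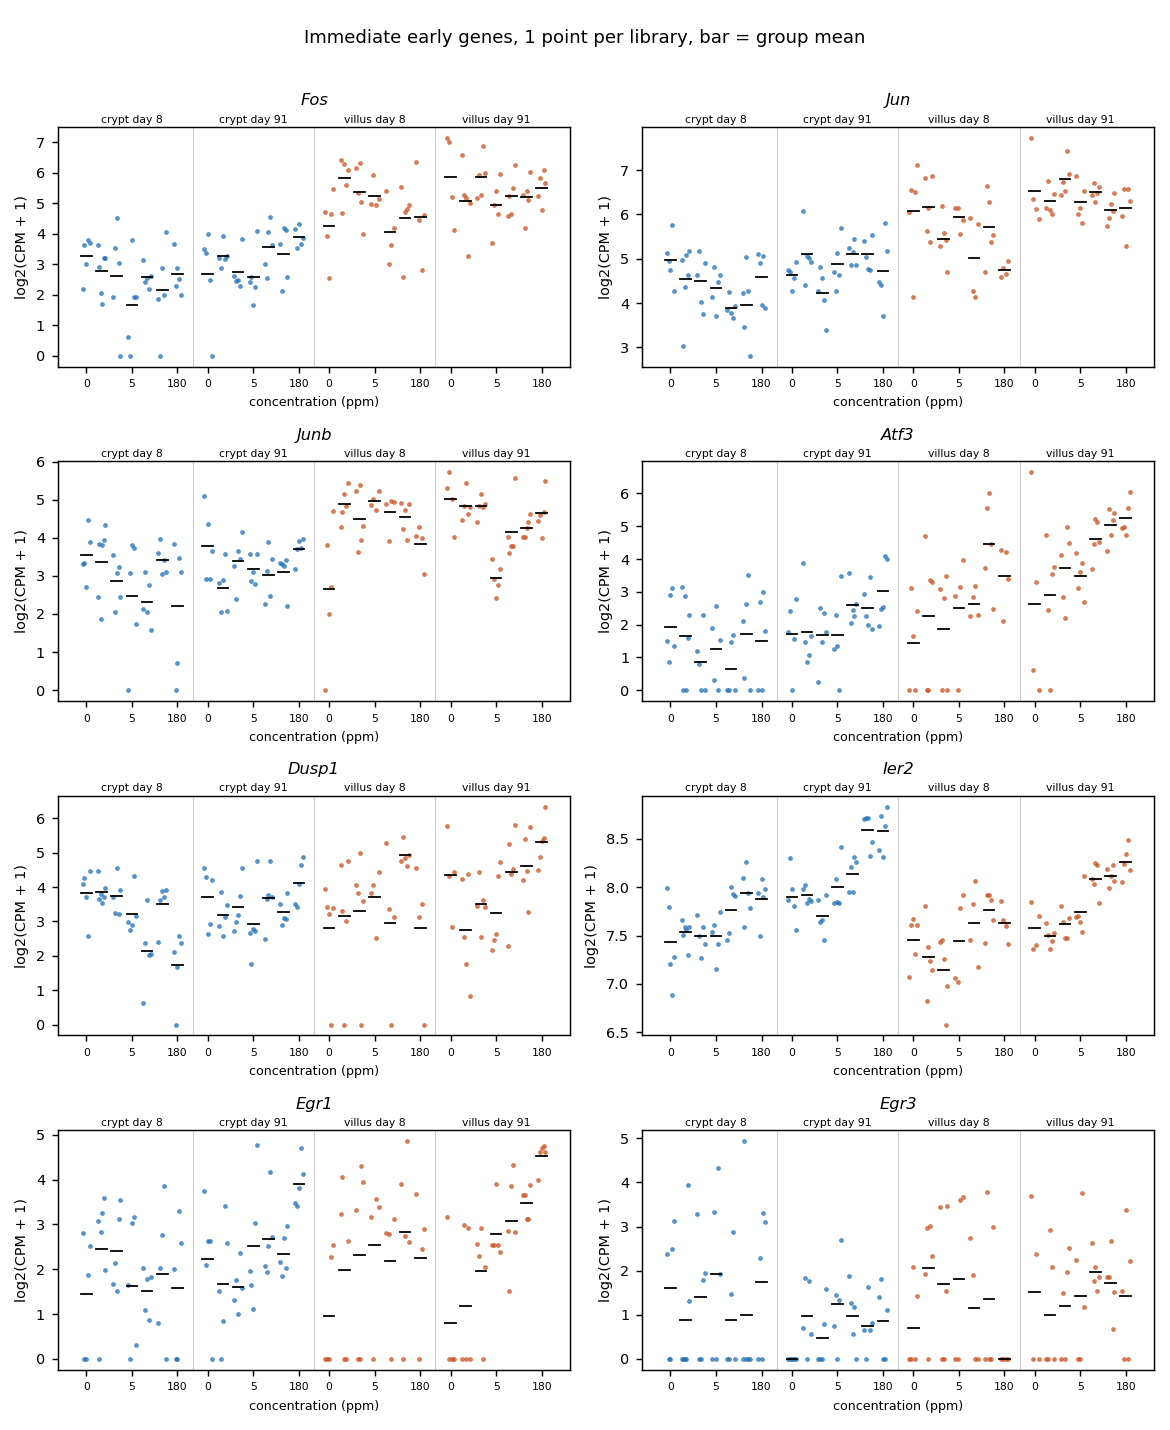
Levels of 8 immediate early response genes in each library, as log2(CPM + 1), against the Cr(VI) concentration in drinking water (ppm), in crypts and villi at days 8 and 91. Each point is a library and each bar the mean of its group on the log2 scale. On average over the concentrations, Fos, Jun, and Junb sat higher in villi than in crypts. At day 91 Ier2 sat higher at 60 and 180 ppm than in untreated mice in both compartments.

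Promoters are shown because immediate early genes share regulatory motifs close to the transcription start. They are those of the members with an entry that were lower in crypts than in villi at both days, averaged over the concentrations. RefSeq promoter windows on GRCm38.p6 (250 bases before to 50 after a start) were at hand for 7 of the 10 members, and not for Egr1, Egr3, and Ier2. The last 150 bases before the start follow, 5′ to 3′ on the strand of the gene. Capitals mark TGACG, the core of the cyclic AMP response element to which CREB and ATF proteins bind, or its reverse complement CGTCA, and in Dusp1 the full palindrome TGACGTCA.
Fos, chr12:85473740-85473889, plus strand: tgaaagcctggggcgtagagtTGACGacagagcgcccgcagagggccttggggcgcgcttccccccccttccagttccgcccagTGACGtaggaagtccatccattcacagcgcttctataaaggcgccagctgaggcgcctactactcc
Jun, chr4:95052223-95052372, minus strand: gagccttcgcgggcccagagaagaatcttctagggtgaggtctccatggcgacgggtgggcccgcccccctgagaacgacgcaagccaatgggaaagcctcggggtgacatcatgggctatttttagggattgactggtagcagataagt
Junb, chr8:84978749-84978898, minus strand: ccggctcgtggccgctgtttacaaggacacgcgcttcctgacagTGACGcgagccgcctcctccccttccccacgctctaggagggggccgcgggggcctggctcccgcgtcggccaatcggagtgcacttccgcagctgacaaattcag
Atf3, chr1:191183334-191183483, minus strand: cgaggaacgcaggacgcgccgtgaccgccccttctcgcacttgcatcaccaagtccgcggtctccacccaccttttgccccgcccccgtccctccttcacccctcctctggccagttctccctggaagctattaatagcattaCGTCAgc
Dusp1, chr17:26508473-26508622, minus strand: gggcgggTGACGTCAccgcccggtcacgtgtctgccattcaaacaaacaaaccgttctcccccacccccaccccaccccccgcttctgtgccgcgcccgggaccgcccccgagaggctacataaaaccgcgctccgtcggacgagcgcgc
Counted on both strands over the whole window of 300 bases, TGACG was found in Fos at -129 and -66, in Junb at -106, in Atf3 at -7, and in Dusp1 at -191, -143, and -140, where the last pair is the palindrome read on each strand. Fosb had it at -60 and Egr2 had it in 3 of its 5 windows, which overlap and hold the same sites, while the window of Jun had none. TGACG was held by 20.8% of the 32851 promoter windows of the set and 1.79% held TGACGTCA. The CArG box of serum response factor was found in 4 of the 5 windows of Egr2 and in no other member, against 1.63% of all windows. The same 3 overlapping windows hold a single CArG site between them, so the windows are not separate counts. Neither the AP-1 site TGANTCA (7.81% of all windows) nor the EGR site GCGTGGGCG (0.612%) was found in a member. TGACG was searched after these sequences had been seen, and a match or its absence describes letters in this window only.

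In the averages over the 7 concentrations, Fos, Jun, Junb, Atf3, and Dusp1 were lower in crypts than in villi at both days, and Ier2 was slightly higher. These averages do not describe each concentration, and untreated mice are given separately below. Averaged over the 7 concentrations at day 8, Fos was lower in crypts by 2.30 ± 0.26 on the log2 scale (adjusted p = 2.9e-14), Atf3 fell by 1.57 ± 0.42 from villus to crypt (0.00026), Junb by 1.35 ± 0.22 (2.51e-08), Jun by 1.23 ± 0.14 (5.87e-13), and Dusp1 by 0.62 ± 0.28 (0.0595), while Ier2 was higher by 0.16 ± 0.07 (0.0691). In total 6 of the 10 members were called, 5 lower and 1 higher in crypts, where 35.2% of all probes were called, 10.5% lower and 24.7% higher. At day 91 the differences were -2.31 ± 0.25 for Fos (adjusted p = 1.22e-14), -2.15 ± 0.41 for Atf3 (1.47e-06), -1.55 ± 0.14 for Jun (1.53e-18), -1.12 ± 0.21 for Junb (2.33e-06), -0.73 ± 0.27 for Dusp1 (0.0258), and 0.28 ± 0.07 for Ier2 (0.000371), and Egr3 was also lower in crypts by 1.28 (0.00778). That made 7 called members, 6 lower and 1 higher, against 34.8% of all probes, 11.7% lower and 23.1% higher. Egr1, Egr2, and Fosb were not called on either day. Without the libraries of mice 48 and 49 the day 8 values were -2.34 for Fos, -1.62 for Atf3, -1.41 for Junb, -1.28 for Jun, -0.57 for Dusp1, and 0.20 for Ier2, all 6 still called. In bulk samples, fewer cells of a type and less RNA per cell cannot be told apart.

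**Figure D2:**
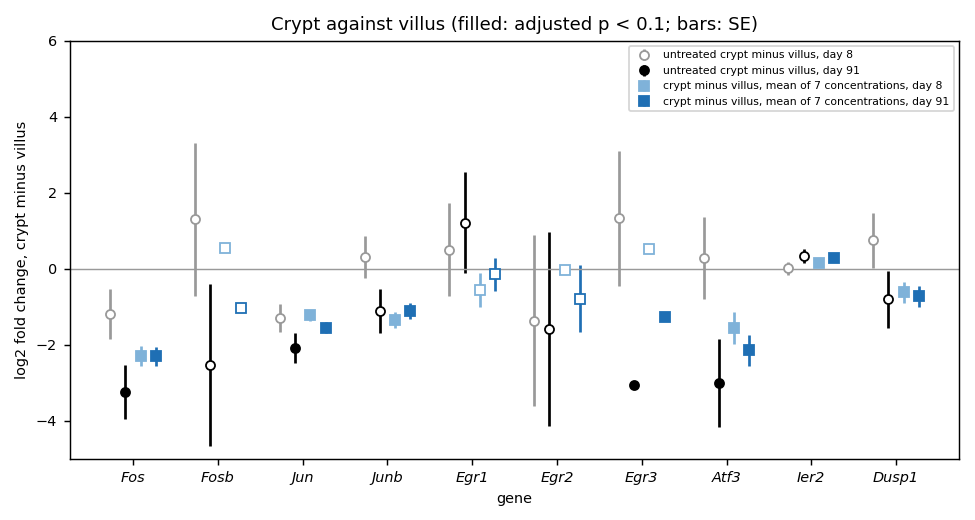
Mean log2 difference (crypt minus villus, log2 scale) of each member in untreated mice and averaged over the 7 concentrations, at days 8 and 91, with bars of ± 1 SE and filled points where the adjusted p is below 0.1. No bar is drawn where a group in the contrast was at 0 in every library. Fos, Jun, Junb, Atf3, and Dusp1 lie below 0 in both averages, while Ier2 lies just above it.

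The groups behind these averages were widely spread. Fos (GRCm38 chromosome 12, 85473890 to 85477273) had a median of 35.7 CPM over 66 villus libraries, from 4.86 to 141 CPM, and of 6.48 CPM over 71 crypt libraries, from 0 to 22.4 CPM. Jun (chromosome 4, 95049034 to 95052222) had a median of 69.6 CPM in villi, from 16.6 to 211 CPM, and of 25.1 CPM in crypts, from 6.05 to 66.6 CPM. Junb (chromosome 8, 84974484 to 84978718) had a median of 22.0 CPM in villi and 8.49 CPM in crypts, and Atf3 (chromosome 1, 191170296 to 191218039) of 10.4 and 2.52 CPM. The highest crypt libraries thus lay well inside the range of the villus libraries for each of these genes. Markers moved with the compartment: the sum of 8 crypt markers had medians of 10127 and 8266 CPM in crypts at days 8 and 91 and of 1432 and 824 CPM in villi. Ada, a villus marker, was at 0 in every crypt library at 180 ppm and day 8, and no other listed crypt or villus marker was at 0 throughout a group. Villi had less of the smooth muscle list (medians of 294 and 290 CPM, against 1098 and 1113 CPM in crypts), and the part of other cell types in the differences was not tested.

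With the mouse as a block, which uses that the compartments came from the same animals, 13 of the 40 values of the 4 comparisons between compartments were called in place of 17. Ier2 and Dusp1 lost the call in the day 8 average (0.17, adjusted p = 0.136, and -0.29, adjusted p = 0.601), and Fos, Jun, Junb, and Atf3 kept it. In the day 91 average the same 7 members were called.

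In untreated mice at day 8 no member was called between crypt and villus (smallest adjusted p = 0.148, for Jun at -1.31 ± 0.37), and 0.152% of all probes were called. An unadjusted p below 0.05 was found for 1 member and for 4186 of the 26365 probes. The differences were positive (higher in crypts) for 7 members and negative for 3, with a median of 0.29 beside 0.08 over all probes. Junb was 5.54 to 21.3 CPM in these crypts and 0 to 25 CPM in these villi. Atf3 was 0.809 to 7.65 CPM and 0 to 7.71 CPM. DESeq2 called Jun in this comparison. Without the libraries of mice 48 and 49 named above, Jun was called in edgeR too, and Fosb joined the called members of the day 8 average. In untreated mice at day 91, 4 of the 10 members were lower in crypts, with 9.73% of all probes called. Fos was 16.4, 36, 128, and 141 CPM in the 4 untreated villus libraries and 0, 4.62, 9.28, 10.2, and 15 CPM in the 5 untreated crypt libraries, without overlap (log2 difference -3.26 ± 0.71, adjusted p = 0.00067). Jun was 58.9, 69, 80.2, and 211 CPM in these villi and 18.3 to 29.5 CPM in the crypts, also without overlap (-2.08 ± 0.39, adjusted p = 9.47e-05). With the second probes the groups overlapped: Fos had 9.94 to 164 CPM in villi and 3.82 to 17.7 CPM in crypts (-2.66 ± 0.79, adjusted p = 0.0196), and Jun had 13.4 to 75.3 CPM and 2.62 to 20.6 CPM (-1.92 ± 0.75, not called).

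Egr3 and Atf3 were called in the same comparison but rested on few libraries. Egr3 had 0 counts in all 5 untreated crypt libraries and was 0, 0, 4.22, and 12 CPM in the villi, so its villus mean was at least 5.52-fold higher than the floor of 3 counts in each crypt library. Atf3 was 0, 0.528, 8.81, and 99.2 CPM in villi and 0 to 5.9 CPM in crypts (-3.01 ± 1.15, adjusted p = 0.0752). The villus library of mouse 3 had the highest value of its group for Fos, Jun, Atf3, Dusp1, Egr1, Egr3, Fosb, and Ier2. Without mouse 3 and its day 8 counterpart the call for Egr3 was lost and the Atf3 difference was -0.067, and with the mouse as a block both lost the call (adjusted p = 0.169 and 0.703).

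Members were called after Cr(VI) about as often as probes in general. Of 240 comparisons of a member in an exposed group with the untreated group of its compartment and day, 8 (3.33%) were called, 6 higher and 2 lower, and over all probes 3.57% of the same 24 comparisons were called. The 8 were Ier2 in 5, Atf3 in 1, Jun in 1, and Junb in 1. Fos, Fosb, Egr1, Egr2, Egr3, and Dusp1 were not called at any concentration in this test. Without mice 46 and 3, the first untreated mouse of each day, 14 comparisons were called, and without the last untreated mouse of each day in order of number 13 were. DESeq2 called 25 of the 240. The share of all probes called by DESeq2 or by the fits without a mouse is not given here. Those counts, and the DESeq2 counts of members below, therefore cannot be set against the 3.57%.

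No member was called in crypts at day 8. The share of all probes called was 0.00379% (0.1 ppm), 0.00379% (1.4 ppm), 0.00379% (5 ppm), 0.125% (20 ppm), 1.33% (60 ppm), and 3.05% (180 ppm). At these concentrations 0, 1, 0, 4, 2, and 3 members had an unadjusted p below 0.05. So did 2846, 2850, 3178, 2863, 3914, and 4674 of the 26365 probes. DESeq2 called 0, 0, 0, 1, 2, and 2 members. Ier2 was called in crypts at day 91 at 60 and 180 ppm, and no member at the other concentrations. The share of all probes was 0% (0.1 ppm), 0% (1.4 ppm), 0% (5 ppm), 0.216% (20 ppm), 8.85% (60 ppm), and 3.69% (180 ppm). From 0.1 to 20 ppm 2, 1, 1, and 1 members had an unadjusted p below 0.05, as did 1768, 2020, 2571, and 3033 of the 26365 probes. DESeq2 called Egr3 at the 3 lowest concentrations and none at 20 ppm. Egr3 was at 0 in all 5 untreated libraries there and reached at most 2.56, 2.01, and 5.44 CPM at 0.1, 1.4, and 5 ppm. These DESeq2 calls therefore compare low counts with a group without any.

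Atf3 was called in villi at day 8 at 60 ppm and Jun at 180 ppm. The shares of all probes were 0% (0.1 ppm), 0.831% (1.4 ppm), 0.315% (5 ppm), 1.34% (20 ppm), 6.16% (60 ppm), and 4.72% (180 ppm). From 0.1 to 20 ppm 3, 3, 1, and 3 members had an unadjusted p below 0.05, as did 3404, 5658, 4824, and 5536 of the 26365 probes. DESeq2 called 0, 1, 1, and 2 members. Junb was called in villi at day 91 at 5 ppm and Ier2 at 20, 60, and 180 ppm. The shares of all probes were 0.33% (0.1 ppm), 0.25% (1.4 ppm), 11.7% (5 ppm), 14.6% (20 ppm), 14.3% (60 ppm), and 13.9% (180 ppm). At 0.1 and 1.4 ppm 1 and 0 members had an unadjusted p below 0.05, as did 4279 and 4098 of the 26365 probes, and DESeq2 called no member. With 1 of 10 members called at each of the 4 higher concentrations, the members were called about as often as probes in general. The median log2 difference of the members at 180 ppm was -0.50 in crypts at day 8, 0.75 in crypts at day 91, 0.20 in villi at day 8, and -0.14 in villi at day 91, beside medians of -0.04, 0, -0.07, and 0.11 over all probes.

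**Figure D3:**
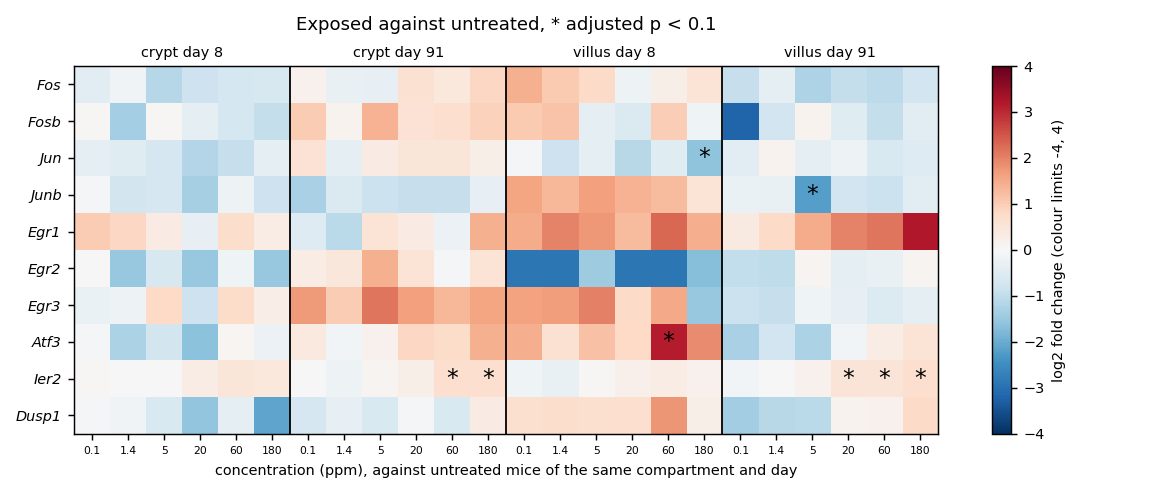
Log2 fold changes of the 10 members (rows) in each exposed group against untreated mice of the same compartment and day (columns, by concentration in ppm), with the 8 comparisons whose adjusted p is below 0.1 marked. The marks fall on Ier2 at high concentrations of day 91, on Atf3 and Jun in villi at day 8, and on Junb in villi at 5 ppm.

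Ier2 (chromosome 8, 84661331 to 84662852) had a rising trend over the ranked Cr(VI) concentrations in both compartments on both days, least firmly in villi at day 8. Over the ranks of the 7 concentrations it rose by 0.08 ± 0.02 per rank on the log2 scale in crypts at day 8 (adjusted p = 0.0142), by 0.14 ± 0.02 in crypts at day 91 (5.01e-06), by 0.07 ± 0.02 in villi at day 8 (0.053), and by 0.13 ± 0.02 in villi at day 91 (7.43e-06). Over all probes 8.84% were called for a trend in crypts at day 8, 14.2% in crypts at day 91, 15.7% in villi at day 8, and 31% in villi at day 91, and of the members 2, 1, 2, and 3 were called. Of the crypts at day 91, the 5 untreated libraries had 187, 223, 233, 251, and 314 CPM of Ier2, the libraries at 60 ppm 320, 354, 418, 421, and 421 CPM, and those at 180 ppm 316, 334, 397, 426, and 455 CPM. All 10 exposed libraries lay above all 5 untreated ones, by 0.68 ± 0.18 at 60 ppm (adjusted p = 0.00555) and 0.67 ± 0.18 at 180 ppm (0.0139). At 20 ppm, with 246 to 316 CPM, the difference of 0.22 was not called.

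The level of Ier2 in villi at day 91 was 164, 168, 208, and 229 CPM in untreated mice, 227 to 304 CPM at 20 ppm, 253 to 300.2 CPM at 60 ppm, and 264, 288, 302, 323, and 358 CPM at 180 ppm. The log2 differences were 0.50 ± 0.19 (adjusted p = 0.0746), 0.52 ± 0.19 (0.0594), and 0.67 ± 0.19 (0.011), and the groups at 60 and 180 ppm did not overlap with the untreated group. The scale matters for these villi, since the median log2 difference over all probes was 0.30, 0.19, and 0.11 at these concentrations, and Ier2 stood 0.21, 0.34, and 0.56 above that median. With DESeq2 size factors the median over all probes was 0.02, 0, and 0, the Ier2 differences were 0.17, 0.14, and 0.39, and none of the 3 was called (adjusted p = 0.562, 0.663, and 0.16). The call in crypts at 60 ppm was lost with these size factors as well (0.39, adjusted p = 0.172), and that at 180 ppm was kept. The trends in crypts at both days and in villi at day 91 were called in each of the 22 alternatives run, while the calls in villi at 20 and 60 ppm were lost in 18 and 10 of 22. The trend in villi at day 8 was lost in 4 of 22, among them separate fits (adjusted p = 0.27) and the fits without the first untreated mice (0.122) or without the second or the third exposed mice (0.15 and 0.181). The day 8 trends without the libraries of mice 48 and 49 were 0.08 in crypts (adjusted p = 0.0371) and 0.07 in villi (0.0336). At day 8 the Ier2 differences at 180 ppm were 0.41 ± 0.18 in crypts and 0.17 ± 0.19 in villi, and neither was called.

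Jun fell with concentration in villi at day 8, by 0.21 ± 0.05 per rank (adjusted p = 0.00201). The 5 untreated villus libraries had 16.7, 65.6, 90.6, 92.9, and 138 CPM, and the 4 libraries at 180 ppm had 22.9, 24.2, 26.9, and 29.7 CPM. The groups overlap only through the untreated library of mouse 48, the one with high crypt markers, and the difference was -1.62 ± 0.40 (adjusted p = 0.00642). Without it and the crypt library of mouse 49 the difference was -1.87 (adjusted p = 0.000597). Jun was also called at 20 ppm in that case. The sum of 8 villus markers moved the same way, from 15534 to 54747 CPM in these untreated villi to 12346 to 19086 CPM at 180 ppm, and its part in the fall of Jun was not tested. At day 91 Jun in villi was 58.9 to 211 CPM in untreated mice and 38 to 94.5 CPM at 180 ppm and was not called (-0.52 ± 0.38), where the villus marker sum was 10793 to 26974 CPM at 180 ppm and 32904 to 62248 CPM in untreated mice. In crypts the differences of Jun at 180 ppm were -0.38 ± 0.37 at day 8 and 0.24 ± 0.37 at day 91.

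Junb fell in villi at day 91 at 5 ppm and was not called at another concentration. It was 15.3, 31.4, 38.9, and 51.7 CPM in untreated villi and 4.38, 5.83, 6.5, 8, and 9.87 CPM at 5 ppm (-2.22 ± 0.60, adjusted p = 0.00841). The 5 exposed libraries lay below all untreated libraries of that day. At the neighboring concentrations of 1.4 and 20 ppm Junb was 20.5 to 34.6 CPM and 11.2 to 46.8 CPM, and at 180 ppm 14.9 to 44.2 CPM (-0.42 ± 0.58). Junb was called at 5 ppm in all 22 alternatives, with adjusted p from 0.000226 to 0.0494.

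Fos was not called at any concentration with this probe. At day 91 villi had 16.4 to 141 CPM of it in untreated mice and 26.6, 36.7, 49.3, 55.4, and 67.2 CPM at 180 ppm (-0.76 ± 0.66, adjusted p = 0.492). Crypts of that day had 0 to 15 CPM in untreated mice and 10.5 to 19.2 CPM at 180 ppm (0.82 ± 0.65, adjusted p = 0.619). In villi at day 8 the libraries at 180 ppm ran from 5.95 to 81.2 CPM and the untreated ones from 4.86 to 43.7 CPM. Fosb, the close relative of Fos, exceeded 3 counts in 5 of 32 villus libraries at day 8 and in 19 of 34 at day 91, and none of its differences was called.

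Egr1 rose with concentration in villi at day 91, by 0.51 ± 0.18 per rank (adjusted p = 0.0148). It was 0, 0, 0, and 7.98 CPM in the untreated villi, 4.21, 4.8, 4.8, 4.86, and 13.9 CPM at 5 ppm, 1.87 to 19.1 CPM at 20 ppm, 7.64 to 13.8 CPM at 60 ppm, and 14.9, 23.4, 23.7, 25.2, and 25.7 CPM at 180 ppm. All 5 libraries at 180 ppm lay above all 4 untreated ones, yet the pairwise difference of 3.21 ± 1.42 missed the threshold (adjusted p = 0.101), and 8 of 22 alternatives called it. Other cell type markers moved with concentration in these villi: the sum of 6 fibroblast markers was 171 to 436 CPM in untreated mice and 407 to 685 CPM at 180 ppm, beside the lower villus marker sum given above. Their part in the rises of Egr1, Ier2, and Dusp1 in villi at day 91 was not tested. The untreated library with 7.98 CPM is that of mouse 3, and without the first untreated mice the difference was called. In crypts at day 91 Egr1 was 0, 3.27, 5.19, 5.2, and 12.4 CPM in untreated mice and 9.63, 10.1, 13.1, 16.4, and 25.2 CPM at 180 ppm (1.42 ± 1.17, not called). Egr3 was at 0 in all 4 villus libraries at 180 ppm and day 8 and at 0, 0, 0, 1.68, and 3.24 CPM in untreated ones. Egr2 and Egr3 were not called at any concentration in the edgeR test.

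Atf3 was higher in villi at 60 ppm and day 8, with 4.53, 12.1, 21.2, 46.2, and 63.8 CPM against 0, 0, 2.16, 4.32, and 7.71 CPM in untreated villi (3.13 ± 1.13, adjusted p = 0.0774). The groups overlapped in 1 library of each, and the call was lost without the libraries of mice 48 and 49 (3.06, adjusted p = 0.121) and in 6 of the other 21 alternatives. At 180 ppm Atf3 was 3.32, 9.5, 17.5, and 18.3 CPM (1.89 ± 1.13, not called). At day 91 the 5 villus libraries at 180 ppm had 25.6, 29.9, 30.7, 45.8, and 65.4 CPM of Atf3 and the untreated ones 0, 0.528, 8.81, and 99.2 CPM. The untreated library of mouse 3 was above all exposed libraries, and the difference of 0.54 ± 1.09 was not called. Without the first untreated mice it was 3.44 (adjusted p = 0.0954). The second Atf3 probe was at 0 in the villus library of mouse 3 and at 1.58, 3.06, and 10.7 CPM in the other untreated villi, against 3.8, 14.9, 19.8, 28.2, and 36.3 CPM at 180 ppm (2.26 ± 1.69, adjusted p = 0.361). At day 8 and 60 ppm the second probe was not called (1.65 ± 1.53, adjusted p = 0.535).

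Dusp1 (chromosome 17, 26505590 to 26562128) moved in opposite directions in the 2 trends that were called. In crypts at day 8 it fell by 0.30 ± 0.10 per rank (adjusted p = 0.0306), from 4.99, 12, 15.9, 18.4, and 21.3 CPM in untreated mice to 0, 2.21, 3.29, 4.13, and 4.92 CPM at 180 ppm. Those groups did not overlap, but the pairwise difference of -2.10 ± 0.76 missed the threshold (adjusted p = 0.105). The lowest untreated value, 4.99 CPM, is that of the library of mouse 49. The trend was lost in 3 of 22 alternatives (thinned counts and without the first or the second exposed mice) and was -0.31 without the libraries of mice 48 and 49 (adjusted p = 0.0354), and 5 of 22 alternatives called the difference at 180 ppm. The sum of villus markers in these crypts moved with it, from 11596 to 34222 CPM in untreated mice to 3072 to 5662 CPM at 180 ppm, and its part was not tested. The order with concentration was not even, since Dusp1 was 0.557 to 11.3 CPM at 20 ppm and 4.28 to 14.1 CPM at 60 ppm. In villi at day 91 it rose by 0.24 ± 0.10 per rank (adjusted p = 0.0648), with 6.13, 19, 20.7, and 53.8 CPM in untreated mice and 21.6, 28.2, 39.7, 42.5, and 80.0 CPM at 180 ppm (0.76 ± 0.76, not called), and 8 of 22 alternatives lost that trend. In villi at 60 ppm and day 8 all 5 libraries (23.3 to 43.4 CPM) lay above the 5 untreated ones (0 to 14.5 CPM), with 1.76 ± 0.74 and an adjusted p of 0.136.

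Whether the 180 ppm effect differed between compartments or days was tested directly, and no member was called in any of these 4 contrasts. The shares of all probes called were 0.0114% and 0.25% for villus minus crypt at days 8 and 91, and 0.0834% and 3.21% for day 91 minus day 8 in crypt and villus. Of the members 2, 1, 3, and 1 had an unadjusted p below 0.05 in these contrasts, as did 3251, 3174, 2504, and 4739 of the 26365 probes. DESeq2 called Egr3 in 3 of the contrasts. Each of the 4 contrasts holds a group with Egr3 at 0 in every library, either untreated crypts at day 91 or villi at 180 ppm and day 8. The contrasts of Dusp1 came to 2.35 ± 1.07 for villus minus crypt at day 8 (adjusted p = 0.289) and 2.44 ± 1.04 for day 91 minus day 8 in crypts (0.32). In untreated mice, Junb was higher in villi at day 91 than at day 8 (1.81 ± 0.59, adjusted p = 0.0921), with 15.3 to 51.7 CPM against 0, 2.97, 5.53, 13.1, and 25 CPM, and 2.29% of all probes were called. That call was lost without the libraries of mice 48 and 49 (1.62, adjusted p = 0.209). In untreated crypts no member was called between the days, and 0.00379% of all probes were called. DESeq2 called Egr3, which was at 0 in every untreated crypt library of day 91. An unadjusted p below 0.05 was found for 2 members and for 2858 of the 26365 probes.

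The second probes of Fos, Jun, Egr1, and Atf3 were compared with the first. The second probes of Fos, Jun, and Atf3 were lower in crypts in both averages over concentrations, by 2.52 and 2.18 for Fos, by 1.37 and 1.63 for Jun, and by 1.58 and 1.92 for Atf3 on the log2 scale at days 8 and 91, called in each case. The second probe of Egr1 rose over concentration in villi at day 91 (0.56 per rank, adjusted p = 0.00449) as the first did. The exposure calls were less alike. The fall of Jun in villi at day 8 was not called with its second probe, which fell at day 91 at 60 ppm (-1.95 ± 0.76, adjusted p = 0.0755) and over concentration (-0.27 per rank, adjusted p = 0.0267). The second probe of Fos fell in villi at day 91 at 5 ppm (-2.01 ± 0.78, adjusted p = 0.0906) and over concentration in crypts at day 8 (-0.31 per rank, adjusted p = 0.0262). The second probe of Egr1 was higher in villi at day 8 at 1.4, 60, and 180 ppm (3.40, 3.39, and 2.32, adjusted p = 0.079, 0.0228, and 0.0765), where the first was not called. It was at 0 in all 5 untreated villus libraries of that day, so these log2 values are not measured folds. Their size rests on a small count added before the log. At 180 ppm this probe was 0, 0, 2.77, and 5.9 CPM, and at 60 ppm 0, 2.02, 6.7, 7.64, and 9.45 CPM. Without the libraries of mice 48 and 49 the call at 60 ppm was kept (adjusted p = 0.0494), those at 1.4 and 180 ppm were lost (0.165 and 0.112), and so was the crypt trend of the second Fos probe (0.15). Within groups, the log2 CPM of a pair of probes correlated over all libraries with r = 0.51 for Fos, 0.22 for Atf3, 0.19 for Jun, and 0.16 for Egr1.

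Genes that act with or around the members were read from 8 lists of the pathway, of which 92 genes were tested at 180 ppm. Of these, 3 were called in crypts at day 8, all lower, where 0.474% of all probes were called higher and 2.58% lower. In crypts at day 91 there were 5 higher and 2 lower, against 2.16% and 1.54% of all probes, and in villi at day 8 there were 3 higher and 4 lower, against 1.88% and 2.84%. Villi at day 91 had 23 called genes, 16 higher and 7 lower, against 9.44% and 4.48%. Over the 22 alternatives the counts ran from 2 (thinned counts) to 7 (DESeq2) in crypts at day 8, from 3 (without the first untreated mice) to 20 (separate fits) in crypts at day 91, from 4 (without the third exposed mice) to 13 (DESeq2) in villi at day 8, and from 15 (without the third exposed mice) to 27 (default edgeR form) in villi at day 91. Without the first untreated mice, Batf2, Crem, and Trib3 in villi at day 91, Areg and Nfkbia in villi at day 8, and Areg, Trib1, Atf1, and Nfkbiz in crypts at day 91 lost their calls.

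Among the other AP-1 subunits, Fosl1, whose product FRA1 is a Fos family partner of Jun that is made later and lasts longer, was called in 3 of the 4 sets. In villi at day 91 it had no count in any of the 4 untreated libraries and 66.6, 75.8, 96.8, 187, and 358 CPM at 180 ppm (mean 157 ± 122 SD, n = 5), at least 117-fold higher than the floor of 3 counts in each untreated library. At 60 ppm its mean of 119 ± 56.6 CPM was at least 88.3-fold above that floor, at 20 ppm 114 ± 102 CPM at least 84.9-fold, and at 5 ppm 15.7 ± 14.8 CPM at least 11.7-fold. In villi at day 8 Fosl1 was 0, 0, 0, 1.2, and 7.28 CPM in untreated mice and 15.6, 35.7, 51.8, and 89.6 CPM at 180 ppm (4.37 ± 1.15, adjusted p = 0.00548). In crypts at day 91 it was 0 to 4.59 CPM and 14.3 to 29.3 CPM (3.56 ± 1.12, adjusted p = 0.0229), and in crypts at day 8 it was not called. Without the libraries of mice 48 and 49 the day 8 difference in villi was 5.75 (adjusted p = 6e-04). Fos, by contrast, was not called in any of these comparisons, as given above. Mafk and Batf2 of the same list of 9 were also called in villi at day 91. Batf2 had no count in the untreated libraries and 1.92 ± 2.10 CPM (SD, n = 5) at 180 ppm, only at least 1.43-fold higher than the floor, and 5.01 ± 6.22 CPM at 0.1 ppm.

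Of the ligands of the EGF receptor, which lie upstream of MAP kinase signaling, Areg and Ereg were called higher. The 9 tested genes of the list of ligands and receptors had a median log2 difference of -0.52 in villi at day 91, beside 0.11 over all probes. That median was -0.07 and 0.03 in crypts at days 8 and 91 and 0 in villi at day 8, beside -0.04, 0, and -0.07. Areg, or amphiregulin, was 3.24, 8.4, 11.9, 12.1, and 17.4 CPM in untreated villi at day 8 and 36.8, 62.9, 64.4, and 76.7 CPM at 180 ppm (2.45 ± 0.87, adjusted p = 0.0954), and in crypts at day 91 it was 0 to 6.67 CPM in untreated mice and 4.67 to 47.6 CPM at 180 ppm (2.63 ± 0.87, adjusted p = 0.0549). The call was lost in 11 of 22 alternatives in the villi, among them the fit without the libraries of mice 48 and 49 (2.23, adjusted p = 0.156), and in 5 of 22 in the crypts. In villi at day 91 Areg was 14.8 to 37.9 CPM and 64.3 to 115 CPM, without overlap but not called, and Ereg, or epiregulin, was higher there (4.12 ± 1.32, adjusted p = 0.019). Erbb3, a receptor of the same family, was lower at 180 ppm in all 4 sets, by 1.28 and 0.87 in crypts and by 1.30 and 0.88 in villi at days 8 and 91 on the log2 scale, and Erbb2 was lower in villi at day 91. Erbb3 stayed called at day 8 without the libraries of mice 48 and 49 (-1.14 in crypts and -1.38 in villi), as did Map2k3 in the villi (1.19). Of the kinases, Map2k3 rose in villi at day 8 (1.16 ± 0.32, adjusted p = 0.0219), and Rps6ka1 and Rps6ka3 rose in villi at day 91 (0.52 ± 0.20 and 1.37 ± 0.27, adjusted p = 0.0782 and 9.63e-05).

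Of the 14 feedback inhibitors, Dusp6, a MAP kinase phosphatase, rose at day 91 from 30.1 to 51.2 CPM in untreated crypts to 63.3 to 128 CPM at 180 ppm (1.13 ± 0.34, adjusted p = 0.0426), and in villi from 35.3, 60.1, 80.1, and 141 CPM to 144, 146, 195, 227, and 324 CPM (1.38 ± 0.37, adjusted p = 0.00623). Spry4 and Nab1, which restrain receptor signaling and EGR factors, rose in villi at day 91. Dusp6 lost the call in both sets with the total count as a covariate (0.98, adjusted p = 0.107, and 0.94, adjusted p = 0.112). The median total count of villi at day 91 was 2172694 in untreated mice and 4000110 at 180 ppm.

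Of the 19 other immediate early effectors that were tested, 2 were called lower and 0 higher in crypts at day 8, 1 lower and 1 higher in crypts at day 91, 3 lower and 0 higher in villi at day 8, and 4 lower and 2 higher in villi at day 91, beside the shares of all probes given above. Sgk1, a kinase induced by steroids and cell stress, fell at day 8 from 16.6, 20.9, 28.8, 30.8, and 107 CPM to 0, 1.23, 5.32, 5.37, and 5.96 CPM in crypts (-3.30 ± 0.65, adjusted p = 6.89e-05) and from 24.8 to 153 CPM to 0 to 7.21 CPM in villi (-4.52 ± 0.75, adjusted p = 6e-06). These were -2.53 (adjusted p = 0.00637) and -4.76 (9.71e-07) without the libraries of mice 48 and 49. In crypts at day 91 Sgk1 averaged 9.10 CPM in untreated mice and 9.71 CPM at 180 ppm. The villus marker sums of both compartments moved down at 180 ppm and day 8 as well, as given above. Their part in the changes of Sgk1 and the other genes of the lists was not tested. Btg2, an inhibitor of proliferation, was lower in villi on both days (-1.56 ± 0.36 and -2.22 ± 0.35), and Nfkbia, an inhibitor of NF-kappaB, was lower at day 8 in both compartments, though not in crypts without the libraries of mice 48 and 49 (-1.03, adjusted p = 0.155). Gadd45b, a stress sensor, rose in villi at day 91 from 16.2 ± 12.4 to 64.7 ± 25.4 CPM (SD, n = 4 and 5), and Trib1 was higher on that day in both compartments. Of the 11 tested transcription factors of the same class, Csrnp1 was called in villi at day 91, with no count in any untreated library and a mean of 5.98 ± 3.10 CPM at 180 ppm, at least 4.45-fold higher than the floor. Atf1 rose at day 91 in both compartments, and Atf4 rose and Trib3 fell in villi at day 91. Crem was called there too, at 0 in the untreated libraries and 3.76 ± 2.98 CPM (SD, n = 5) at 180 ppm, at least 2.80-fold higher than the floor.

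**Figure D4:**
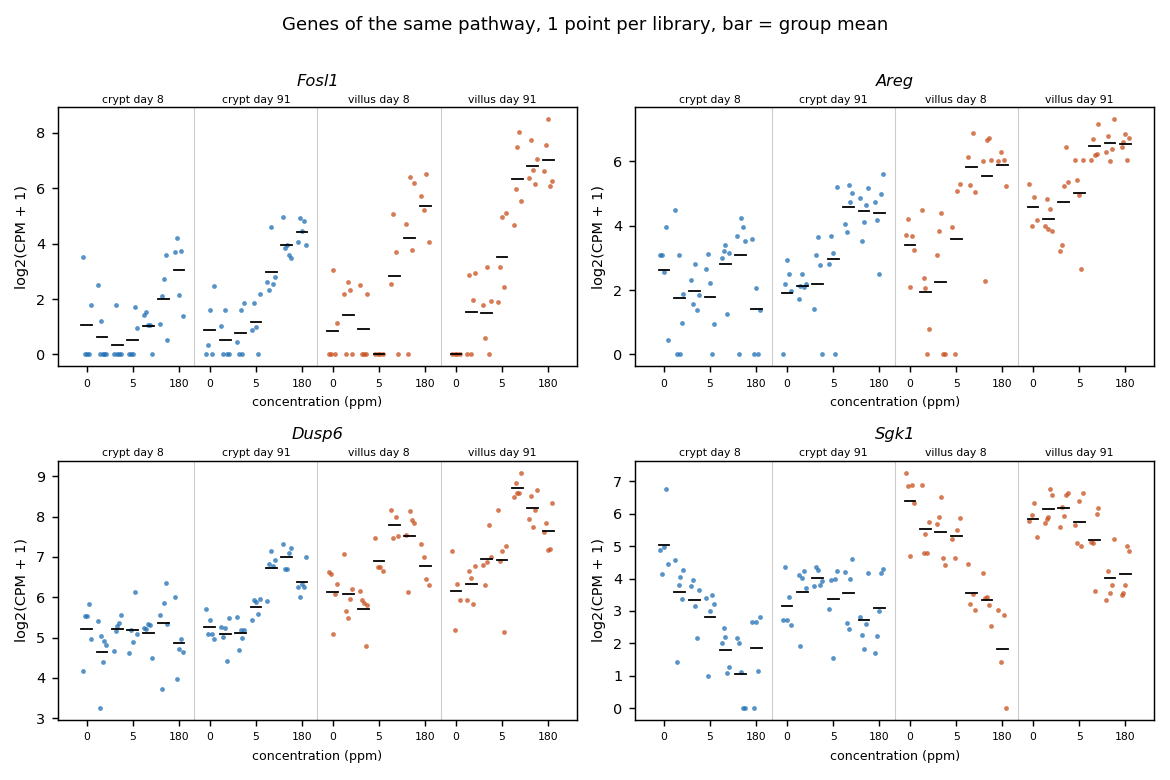
Levels of Fosl1, Areg, Dusp6, and Sgk1 in each library, as log2(CPM + 1), against the Cr(VI) concentration in drinking water (ppm), in crypts and villi at days 8 and 91. Each point is a library and each bar the mean of its group on the log2 scale. These 4 genes were chosen after their values had been seen. Fosl1 climbs from 0 in untreated villi at day 91. On average Areg and Dusp6 sit higher in villi at 180 ppm than in untreated villi, and Sgk1 sits lower in exposed mice at day 8.

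Correlations between members from library to library were low. After the mean of each group was taken away from log2 CPM, the 45 pairs of members had a median correlation of 0.09 over all libraries, from -0.25 to 0.31, while the median of a member with all probes was 0.01. Fosb and Atf3 made the highest pair over both compartments. Within 1 compartment some pairs were higher: r was 0.55 for Egr2 and Egr3 in crypts (-0.15 in villi) and 0.41 for Fos and Jun in villi (-0.15 in crypts). These values share each library's depth and scaling. Those of the sparse Egr2, Egr3, and Fosb can rest on few libraries, and the effect of their low counts was not tested. Pairs of probes of the same gene correlated with only r = 0.16 for Egr1, 0.19 for Jun, and 0.22 for Atf3, and with 0.51 for Fos. Low values between members therefore cannot show whether the genes moved together. Crypt and villus libraries of the same mouse correlated with r = 0.38 for Fos and 0.32 for Egr3 over 66 mice, higher than 94.7% and 91.3% of all probes. For Atf3 and Dusp1 r was 0.19 and 0.16, for the other members 0.11 or less, and the median over all probes was 0.06.

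Egr3 varied with immune genes. The genes most like Egr3 within groups were Spib (r = 0.61), Cr2 (0.58), and Coro1a (0.58), all of them known from B cells or leukocytes, and its correlation with the sum of 7 immune markers was 0.53. The highest Egr3 value, 29.6 CPM in the crypt of mouse 447 (60 ppm, day 8), came with an immune marker sum of 1260 CPM, and the next in that compartment and day, 19.2 CPM in the crypt of mouse 289 (5 ppm) and 14.3 CPM in that of mouse 129 (0.1 ppm), with sums of 1726 and 1662 CPM. The median sum over the crypt libraries of day 8 was 126 CPM. A high sum did not always come with high Egr3, which was 2.83 CPM in the crypt of mouse 210 (1.4 ppm, sum of 1267 CPM) and 8.86 CPM in that of mouse 529 (180 ppm, sum of 1498 CPM). At day 91 the sum ran from 50.7 to 195 CPM in crypts, and Egr3 did not exceed 5.44 CPM there. The part of immune cells in the Egr3 values was not tested.

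For the other members the likeness to marker sums was weaker. Within groups, r was 0.38 for Jun with villus markers, 0.35 for Atf3 with endothelial markers, 0.32 for Ier2 with crypt markers, and 0.30 for Egr2 with immune markers, and with the total count it was 0.24 for Ier2 and 0.17 or less for the other members. The genes most like Fos were Rflnb (0.54), Tob1 (0.51), and Eif1ad (0.49), and those most like Jun were Pmaip1 (0.57), 4930539E08Rik (0.47), and Glrx (0.47). Junb was most like Bcar3 (0.55), Ier2 most like Sort1 (0.52), Dusp1 most like Fgf7 (0.49), Atf3 most like Il1rl1 (0.45), and Egr1 most like Armc7 (0.45) over all libraries. No other member was among the 3 genes most like any member.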

How the data were processed

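The authors sequenced TempO-Seq libraries and deposited raw counts of reads per probe without normalization. The submitters' processing notes name bcl2fastq 2.17.1.14 and Bowtie, and the genome build is not given in the sources used here. Counts of all libraries were tested here with edgeR 4.0.16 in R 4.3.3 (filterByExpr, TMM, trended dispersion, 28 group means, quasi-likelihood F test in its legacy form), with Benjamini-Hochberg adjustment over 26365 probes and a threshold of 0.1. DESeq2 1.42.0 was an alternative. The scripts were tested on simulated data. The fits with a mouse block, a depth covariate, or a left-out replicate used the dispersion trend of the full data. In a group with 0 counts throughout, a fold is a lower bound against 3 counts in each library, and such intervals and floors cover counting error only. Crypt and villus libraries of 66 mice are paired by the mouse number in the labels (median correlation of their deviations from group means 0.06 over all probes). The 10 members were named in every comparison. Pathway genes were named where called at 180 ppm, and not every one is reported here. The members and lists were chosen with earlier results of these data known. Figures used matplotlib 3.10.9.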

Additional observations from a re-analysis of the deposited data

Results flagged for a closer look

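In groups of 4 to 6 libraries, 17 of 196 sets of values held a library that stood farther from the others than Dixon's 95% limit allows. For normally distributed values about 1 in 20, or 9.8, would do so by chance. Some of these sets hold libraries at 0 counts, so 9.8 is a reference and not a measured chance count. Only the 7 members with more than 3 counts in over 100 libraries were looked at. Egr1 had 6 of them, all in villi. It was 0 CPM in mouse 288 (5 ppm) and in mouse 368 (20 ppm) at day 8, where the nearest libraries had 8.03 and 5.91 CPM. At day 91 it was 7.98 CPM in untreated mouse 3 beside 0 in the others, 0 in mouse 164 (1.4 ppm) beside 3.15 CPM, 13.9 CPM in mouse 244 (5 ppm) beside 4.86 CPM, and 14.9 CPM in mouse 483 (180 ppm) beside 23.4 CPM. Dusp1 at day 8 was 19.2 CPM in the crypt of mouse 289 (5 ppm, nearest 7.9 CPM), 4.28 CPM in that of mouse 446 (60 ppm, nearest 11.3 CPM), and 0 in the villi of mice 49 (untreated, nearest 8.36 CPM) and 209 (1.4 ppm, nearest 11 CPM). Junb was 3.62 CPM in the crypt of mouse 406 (60 ppm, day 91, nearest 8.64 CPM), 14 CPM in the villus of mouse 367 (20 ppm, day 8, nearest 28.6 CPM), and 46.8 CPM in that of mouse 328 (20 ppm, day 91, nearest 15.3 CPM). Fos was 13.3 CPM in the crypt of mouse 165 (1.4 ppm, day 91, nearest 5.17 CPM) and 5 CPM in the villus of mouse 447 (60 ppm, day 8, nearest 25.4 CPM). Jun was 7.16 CPM in the crypt of mouse 126 (0.1 ppm, day 8, nearest 19.7 CPM), and Atf3 was 13.8 CPM in that of mouse 81 (0.1 ppm, day 91, nearest 2.11 CPM).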

How the results depend on the processing

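The 34 called values of members had 715 values under the alternatives, of which 635 kept direction and call, 80 lost the call, and 0 reversed. Of 793 values for the 37 uncalled differences at 180 ppm, 20 became called and 33 changed sign. The 37 pathway results had 812 values, with 129 calls lost and 0 reversed. For exposed against untreated, 8 calls became 25 with DESeq2, 13 with the default edgeR form, 13 with separate fits, 13 with summed probes, and 5 with DESeq2 size factors, and ran from 5 (without the third exposed mice) to 14 (without the first untreated mice) with replicates left out. The 8 trend calls ran from 5 (without the second exposed mice) to 8, and the calls between crypt and villus from 11 to 18. The contrasts of the 180 ppm effect went from 0 to 3 calls with DESeq2. The 1 call between days in untreated mice became 4 with DESeq2, 3 with the default edgeR form, 3 with a mean count of at least 10, 0 without a filter, 0 with thinned counts, 0 without the libraries of mice 48 and 49, and 0 to 2 with a replicate left out. With the mouse as a replicate block, the pairing by animal, 13 of the 17 compartment calls were kept. The share of all probes called under each alternative is not given here, and the causes were not tested.

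Signs changed for uncalled differences at 180 ppm. Egr2 in villi at day 91 was -0.20 with DESeq2 and -0.14 with its size factors, Egr3 there was 0.29 with depth as a covariate, Egr1 in crypts and Fosb in villi at day 8 were -0.050 and 0.032 with thinned counts, and Atf3 in crypts at day 8 and Jun in crypts at day 91 were 0.022 and -0.031 with summed probes. Without the libraries of mice 48 and 49, Atf3 in crypts and Fosb in villi at day 8 were 0.20 and 0.41. With a replicate left out, crypts at day 8 ranged from -0.31 to 0.72 for Egr1, -0.18 to 0.75 for Egr3, -0.73 to 0.17 for Atf3, and -1.91 to 0.94 for Fosb, and crypts at day 91 from -0.28 to 0.84 for Egr2, -0.13 to 0.44 for Jun, and -0.52 to 0.14 for Junb. Villi at day 8 ranged from -0.40 to 0.94 for Fos, -0.46 to 0.65 for Dusp1, and -0.60 to 0.42 for Fosb, and villi at day 91 from -0.52 to 1.99 for Egr2, -0.69 to 0.076 for Jun, -1.30 to 0.84 for Egr3, and -0.89 to 0.47 for Fosb.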
